A study of Felis catus with 15 samples.

Results

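Ribosome biogenesis factors are the proteins that make ribosomal RNA, trim and modify it, and fold it together with ribosomal proteins into the small and the large ribosomal subunit. The group described here holds 36 such genes of the domestic cat (Felis catus), and all 36 were found by symbol among the 38995 genes of the deposited count table. The genes were taken from a list of symbols, and since that list was drawn up with earlier results on these same libraries in view, they count as chosen by their levels in cultured and fresh tissue. Differences of these genes between cultured and fresh tissue are therefore a description, and no p-value is given for them. Calls made at a p-value threshold are listed as part of that description and are no independent evidence.

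RNA-seq was done on corpus tissue, taken from the middle of the epididymis, a coiled duct where sperm leaving the testis mature. There were 3 groups of 5 libraries: corpus explants (pieces of tissue) cultured with extracellular vesicles from the caput (the stretch of duct before the corpus), explants cultured without vesicles, and fresh corpus tissue. The groups are called vesicle culture, culture and fresh tissue below, and libraries carry their replicate number ("culture 3"). Neither genotype, breed, age, length of culture nor vesicle dose is in the labels, beyond the codes D0 (fresh) and D3 (cultured), whose meaning is not given. The question of the series is what vesicles of the caput do to gene expression in the cultured corpus. Each library is whole tissue with all cell types of the duct wall, so that fewer cells of a type and less RNA per cell cannot be told apart. Whether the replicates are separate animals is not stated, and p-values measure only the spread between these samples.

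As background, ribosome production starts in the nucleolus, where RNA polymerase I copies the ribosomal RNA genes into a long precursor. Small nucleolar ribonucleoproteins (snoRNPs) modify that precursor, and large assemblies of processing factors cut it and build it into the small and large subunits, which are finished in the cytoplasm. The transcription factor MYC raises the expression of many of these genes, and growing and dividing cells make ribosomes at a high rate.

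Total counts ranged from 17308832 to 27420218 per library. All 36 genes passed the filter on low counts, and their counts in single libraries ran from 69 (RRS1 in a fresh library) to 27289 (NCL in culture 3). Culture 3 stood apart from the other libraries: genes encoded in mitochondria took 0.179% of its counts, against 6.23% to 7.48% in the other 4 cultures, and 39.0% of all 18038 tested genes lay more than 1 log2 unit from the mean of the other 4 cultures. Results that include culture 3 are given with it, and for only a part of the members and lists also without it. Culture 3 also entered the estimate of the spread used for vesicle culture against fresh tissue. Other features of the tissue also moved with culture. The summed level of 5 principal cell markers was 2081 to 3411 CPM in vesicle culture, 965 to 3176 CPM in culture and 17838 to 21803 CPM in fresh tissue. Of 3 basal cell markers the sum was 1198 to 4215, 1590 to 4543 and 281 to 524 CPM in the same order of groups. The sum of 15 genes of dividing cells was 660 to 796 CPM in vesicle culture, 548 to 906 CPM in culture and 176 to 194 CPM in fresh tissue. The summed level of 5 epithelial markers was 2139.6 to 4297, 2205 to 6759.7 and 1693 to 2036 CPM, again in that order. By their medians KRT19 (1116, 1245 and 265 CPM), CDH1 and KRT8 were higher in both cultures than in fresh tissue. EPCAM (510, 494 and 542 CPM) and KRT18 (284, 281 and 306 CPM) were not. Of 4 endothelial markers the sum was 318 to 713 CPM in vesicle culture, 388 to 601 CPM in culture and 236 to 307 CPM in fresh tissue. Of 4 markers of germ cells and sperm it was 0 to 2.65, 0 to 0.985 and 1.32 to 37.3 CPM in that order, and 3 of the 3 tested were called lower in either kind of culture. Of 5 lymphocyte markers it was 5.35 to 7.68, 4.8 to 7.5 and 6.95 to 14.998 CPM, and the T-cell marker CD8A had a median of 0.202 CPM in vesicle culture, 0 CPM in culture and 4.43 CPM in fresh tissue. Fibroblast markers (4 genes) summed to 624 to 5967, 847 to 8795 and 421 to 1502 CPM, and these sums overlapped between groups, as did those of macrophages and smooth muscle. Single genes moved, as COL1A1 did with medians of 752, 972 and 135 CPM. Of the fibroblast markers 1 was called higher in either kind of culture, and 3 in culture without culture 3. Macrophage markers went both ways. CD68 had 6.89, 6.81 and 0.361 CPM, and C1QA 4.78, 4.88 and 9.18. Of these 4, 1 was called higher in either kind of culture and 1 lower in vesicle culture. Clear cell markers (4 genes) summed to 17.4 to 63.2, 11.7 to 63.8 and 1.84 to 16.8 CPM, but went both ways. CA2 had a median of 27.9 CPM in vesicle culture, 28.4 in culture and 1.15 in fresh tissue. ATP6V1B1 had 1.21, 0.42 and 4.05 CPM in that order, and 1 of the 4 was called higher and 1 lower in either kind of culture. The neutrophil markers CSF3R and MPO were at or near 0 in every group, while S100A8 and S100A9 were high in both cultures, and MS4A1, a marker of B cells, was at 0 in 3 of 5 libraries of each group. The part of these shifts in the results below was not tested.

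The 36 genes together took a larger share of the library in both cultures than in fresh tissue. Their summed counts were 0.284% ± 0.00592 of all counts in vesicle culture, 0.307% ± 0.0627 in culture and 0.183% ± 0.00495 in fresh tissue (SD, n = 5 each). The libraries of vesicle culture held 0.275% to 0.29%, the other 4 cultures 0.276% to 0.282%, culture 3 0.419% and the fresh libraries 0.176% to 0.189%. No fresh library overlapped a cultured one, and the 4 cultures without culture 3 averaged 0.279% ± 0.00268. NPM1 and NCL made up a large part of the sum, and without them the share was 0.173% ± 0.00379 in vesicle culture, 0.179% ± 0.0251 in culture and 0.123% ± 0.00425 in fresh tissue. Beside this, 78 cytosolic ribosomal protein genes took 4.26% ± 0.425 of counts in vesicle culture, 4.67% ± 0.689 in culture and 3.29% ± 0.237 in fresh tissue, and mitochondrially encoded genes took 6.84% ± 0.388, 5.52% ± 3.03 and 10.1% ± 1.25.

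**Figure D1:**
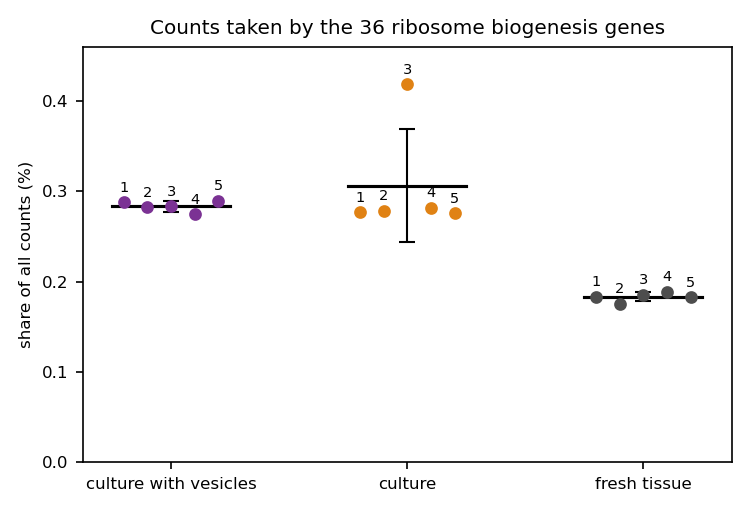
Share of all counts (%, y axis) taken by the 36 ribosome biogenesis genes in each library, with the replicate number above each point; horizontal lines are group means and bars are ± 1 SD (n = 5 libraries per group). Culture 3 lies at 0.419%, the other 9 cultured libraries between 0.275% and 0.29%, and the 5 fresh libraries between 0.176% and 0.189%.

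Gene by gene, most members were higher in culture than in fresh tissue, but not all. By edgeR's quasi-likelihood test with Benjamini-Hochberg adjustment over all 18038 tested genes at 0.05, 23 of 36 members were called higher in culture than in fresh tissue and 0 lower, where 28.7% of all tested genes were called higher and 25.6% lower (54.3% in either direction). At an unadjusted p under 0.05 the counts were 24 higher and 0 lower, and DESeq2 and limma-voom each called 22 higher and 0 lower. The median log2 fold change of the members was 0.76, against 0.04 over all genes tested, with values from -0.28 (NOP58) to 2.50 (RRS1). In 21 of 36 members every culture library was above every fresh one, and 20.2% of all tested genes were separated in that direction. In vesicle culture against fresh tissue 22 members were called higher and 0 lower (27.4% and 25.5% of all tested genes), at an unadjusted p under 0.05 24 and 0, and by DESeq2 and limma-voom 21 and 23 higher with 0 lower. Their median was 0.65, against 0.01 over all genes, and 26 of 36 were separated upwards (25.3% of all tested genes). Both comparisons share the 5 fresh libraries. Since the list was drawn up from such contrasts, nothing is read from its counts against those of all genes.

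Culture 3 changed these values in both directions. Without it 27 members were called higher and 1 lower in culture (30.9% and 29% of all tested genes, 59.9% together), 23 were separated upwards (26%), and the median fell to 0.64 without culture 3, against 0.76 with it. The members that gained a call were POLR1B, UTP15, UTP20 and GNL3, all higher, and PES1, which turned from above 0 to -0.23. In the fit of all 15 libraries the groups share one estimate of the spread. In a fit of the 10 libraries of vesicle culture and fresh tissue alone, NCL, NOLC1, UTP15, NOP14, RRP9 and GNL3 were also called higher, and PES1 was called lower at -0.20. That fit called 11163 genes in all between these groups, against 9549 in the fit of all 15 libraries.

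**Figure D2:**
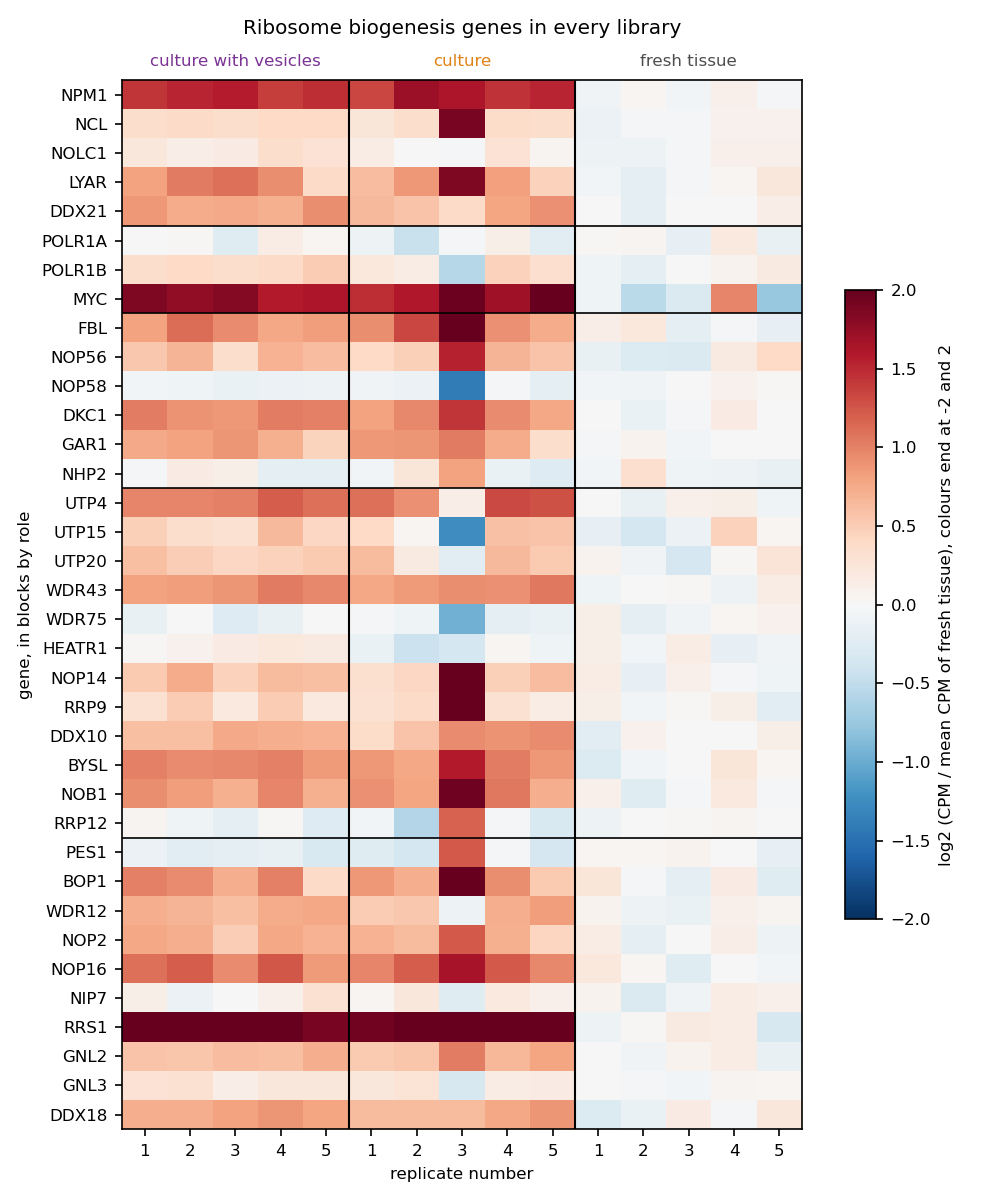
Level of each of the 36 genes in each of the 15 libraries, as log2 of CPM over the mean CPM of fresh tissue (colour; the scale ends at -2 and 2), with genes in blocks by role and libraries as columns by group and replicate number. RRS1, MYC and NPM1 are raised in all 10 cultured libraries, while culture 3 differs from the columns beside it in both directions, with RRP9, BOP1 and NOP14 far up and NOP58 and UTP15 down.

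The organisers and remodellers of the nucleolus are abundant proteins that shape this compartment and its RNA. NPM1, nucleophosmin, is a multivalent protein of the outer nucleolar layer that carries ribosomal proteins and histones (gene 101094904). It had 588, 629.8, 647, 569 and 609 CPM in vesicle cultures 1 to 5, 549.7, 712, 672, 596 and 631 in cultures 1 to 5 and 209, 224, 211, 234 and 214 in fresh libraries 1 to 5. Every cultured library, with or without vesicles, was above every fresh one by more than the range within any group. The log2 fold change was 1.48 ± 0.10 in vesicle culture and 1.53 ± 0.11 in culture (SE, n = 5 per group, both against fresh tissue), and 1.52 ± 0.084 without culture 3. NCL, nucleolin, binds the young precursor and acts in its transcription and first processing (gene 101096255). It had 484, 499, 484, 504 and 500.2 CPM in vesicle cultures 1 to 5, 451, 487, 1417, 491 and 484 in cultures 1 to 5 and 352, 370.2, 375, 404 and 403 in fresh libraries 1 to 5. In 9 cultured libraries NCL lay within 451 to 504 CPM, still above all fresh libraries, and culture 3 was far above all others. Its log2 fold change was 0.38 ± 0.27 in vesicle culture and 0.81 ± 0.27 in culture, and 0.34 ± 0.067 without culture 3. NCL was called in culture but not in vesicle culture, while the fit of only the 10 libraries compared called it in vesicle culture and not in culture.

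NOLC1, a chaperone of snoRNPs that shuttles to the nucleolus, was the member of this block with the smallest difference. It had 103, 95.9, 98.3, 113 and 107 CPM in vesicle cultures 1 to 5, 97.5, 88.6, 85.03, 108 and 91.03 in cultures 1 to 5 and 82.1, 81.7, 86.6, 94.4 and 94.2 in fresh libraries 1 to 5. Culture and fresh libraries overlapped, and vesicle culture lay just above fresh tissue. Its log2 fold change was 0.24 ± 0.098 in vesicle culture and 0.098 ± 0.098 in culture, and neither was called. With the replicate number as a block, and also by limma-voom, NOLC1 was called in vesicle culture at the same size (0.24 ± 0.091). LYAR, a zinc finger protein of the nucleolus in growing cells, averaged 16.04 ± 2.92 CPM in vesicle culture, 17.8 ± 8.05 in culture and 8.74 ± 0.955 in fresh tissue (SD, n = 5 each). LYAR had 31.9 CPM in culture 3, and its log2 fold change was 0.88 ± 0.24 in vesicle culture and 1.02 ± 0.24 in culture (0.71 ± 0.15 without culture 3). DDX21, an RNA helicase that acts at ribosomal RNA genes and on the precursor, averaged 117 ± 7.33 CPM in vesicle culture, 107 ± 14.8 in culture and 67.03 ± 5.03 in fresh tissue. Its log2 fold change was 0.81 ± 0.11 in vesicle culture and 0.67 ± 0.11 in culture, and DDX21 was separated upwards in both.

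In the transcription block the polymerase and its regulator differed in size. MYC, the transcription factor that raises many genes of ribosome production, was among the members furthest above fresh tissue (gene 100379628). It had 90.7, 85.8, 89.01, 75.3 and 76.6 CPM in vesicle cultures 1 to 5, 69.7, 75.8, 97.7, 80.6 and 99.7 in cultures 1 to 5 and 23.4, 17.3, 20.4, 49.01 and 14.8 in fresh libraries 1 to 5. All cultured libraries were above all fresh ones, and fresh 4 stood more than 1 log2 unit from the mean of the other fresh libraries, the only member and library outside culture 3 for which this held. The log2 fold change of MYC was 1.74 ± 0.26 in vesicle culture and 1.76 ± 0.26 in culture (1.72 ± 0.27 without culture 3). POLR1A, the largest subunit of RNA polymerase I, had 45.4, 46.1, 38.1, 50.1 and 46.3 CPM in vesicle cultures 1 to 5, 41.8, 32.96, 44.2, 48.7 and 38.9 in cultures 1 to 5 and 46.04, 46.7, 40.2, 51.8 and 40.7 in fresh libraries 1 to 5. The 3 groups overlapped, and the log2 fold change was 0.0036 ± 0.12 in vesicle culture and -0.13 ± 0.12 in culture, not called in either. POLR1B, the second-largest subunit, had 26.9, 28.003, 26.9, 27.7 and 30.2 CPM in vesicle cultures 1 to 5, 24.5, 23.5, 14.2, 29.1 and 26.6 in cultures 1 to 5 and 20.01, 18.5, 21.3, 22.3 and 23.9 in fresh libraries 1 to 5. Vesicle culture was above fresh tissue in every library, while culture overlapped fresh tissue, with culture 3 the lowest of all 15 libraries. The log2 fold change of POLR1B was 0.40 ± 0.16 in vesicle culture, where it was called, and 0.15 ± 0.16 in culture, where it was called only without culture 3 (0.30 ± 0.095). The call in vesicle culture was lost with DESeq2, without the low-count filter, under both other scalings and when any 1 of 9 libraries was left out.

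The core proteins of snoRNPs fall into the box C/D kind, which methylates ribosomal RNA, and the box H/ACA kind, which turns uridine into pseudouridine. FBL, fibrillarin, is the methyltransferase of the box C/D kind (gene 101094807). It had 77.8, 97.1, 85.8, 76.7 and 79.7 CPM in vesicle cultures 1 to 5, 84.8, 112, 256, 84.7 and 75.2 in cultures 1 to 5 and 48.9, 51.6, 39.7, 43.5 and 39.9 in fresh libraries 1 to 5. All cultured libraries were above all fresh ones, and culture 3 was 2.87 times the mean of the other 4 cultures. The log2 fold change of FBL was 0.90 ± 0.27 in vesicle culture and 1.46 ± 0.28 in culture, and 1.01 ± 0.12 without culture 3. NOP56 and NOP58 are the paired scaffold proteins of the same particle. NOP56 averaged 101 ± 9.09 CPM in vesicle culture, 118 ± 44.98 in culture and 67.6 ± 14.7 in fresh tissue, with log2 fold changes of 0.58 ± 0.21 in vesicle culture and 0.80 ± 0.21 in culture (0.54 ± 0.14 without culture 3). NOP56 overlapped fresh tissue in both, and its call in vesicle culture was lost under both other scalings and without vesicle culture 1, 2, 4 or 5 or fresh 1, 2 or 3 (values 0.48 to 0.58). NOP58 had 92.4, 89.7, 87.2, 88.1 and 89.4 CPM in vesicle cultures 1 to 5, 91.3, 88.6, 36.4, 94.2 and 84.7 in cultures 1 to 5 and 92.5, 91.2, 95.95, 102 and 96.9 in fresh libraries 1 to 5. Apart from culture 3, the lowest library, the groups overlapped, and the log2 fold change of NOP58 was -0.098 ± 0.19 in vesicle culture and -0.28 ± 0.19 in culture (-0.084 ± 0.059 without culture 3), not called in either.

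DKC1, dyskerin, is the pseudouridine synthase of the box H/ACA kind and averaged 62.1 ± 3.1 CPM in vesicle culture, 63.7 ± 12.7 in culture and 31.8 ± 2.41 in fresh tissue. Its log2 fold change was 0.97 ± 0.13 in vesicle culture and 1.002 ± 0.13 in culture, with every cultured library above every fresh one. GAR1, a partner of dyskerin, averaged 25.5 ± 2.74 CPM in vesicle culture, 26.6 ± 4.44 in culture and 15.4 ± 0.536 in fresh tissue, with log2 fold changes of 0.73 ± 0.13 and 0.79 ± 0.13 in the same order, and was also separated upwards in both. NHP2, another partner in the same particle, had 35.2, 40.8, 39.2, 32.1 and 32.01 CPM in vesicle cultures 1 to 5, 34.9, 42.8, 63.3, 32.99 and 30.1 in cultures 1 to 5 and 34.8, 45.9, 34.1, 33.7 and 32.7 in fresh libraries 1 to 5. The groups overlapped, with culture 3 the highest and fresh 2 the next, and NHP2 was not called in vesicle culture (-0.015 ± 0.18) or in culture (0.17 ± 0.18, and -0.033 ± 0.13 without culture 3). In this block 4 of 6 genes were called higher in vesicle culture (27.4% of all tested genes) and 4 of 6 in culture (28.7%).

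In the small subunit block 6 of 12 genes were called higher in vesicle culture (27.4% of all tested genes) and 7 of 12 in culture (28.7%), or 9 of 12 without culture 3 (30.9%). In the fit of vesicle culture and fresh tissue alone, UTP15, NOP14 and RRP9 were also called higher in vesicle culture. It includes 5 subunits of the assembly that binds first to the growing precursor and is also linked to its transcription: UTP4, UTP15, WDR43, WDR75 and HEATR1. UTP4 averaged 41.1 ± 2.96 CPM in vesicle culture, 39.6 ± 11.1 in culture and 19.8 ± 1.54 in fresh tissue, and was called higher in vesicle culture (1.05 ± 0.18) and in culture (1.002 ± 0.18, and 1.17 ± 0.097 without culture 3). WDR43 averaged 73.7 ± 4.83 CPM in vesicle culture, 73.8 ± 5.51 in culture and 39.3 ± 2.68 in fresh tissue, with log2 fold changes of 0.91 ± 0.095 and 0.91 ± 0.095, and was the member with the smallest spread between the 5 cultures. Both were above all fresh libraries in each cultured one. UTP15 had 28.1, 25.96, 25.005, 31.8 and 27.05 CPM in vesicle cultures 1 to 5, 26.8, 20.8, 8.62, 30.6 and 30.1 in cultures 1 to 5 and 18.1, 15.9, 18.7, 27.995 and 20.8 in fresh libraries 1 to 5. Fresh 4 lay within the range of the cultured libraries and culture 3 below all fresh ones, and UTP15 was not called in vesicle culture (0.44 ± 0.26) or in culture (0.21 ± 0.26), but was called without culture 3 (0.43 ± 0.16). WDR75 had 44.8, 49.9, 41.4, 44.9 and 49.1 CPM in vesicle cultures 1 to 5, 48.3, 46.7, 25.5, 43.7 and 45.4 in cultures 1 to 5 and 53.8, 43.3, 47.3, 50.97 and 52.6 in fresh libraries 1 to 5. The groups overlapped apart from culture 3, the lowest library, and the log2 fold change was -0.11 ± 0.15 in vesicle culture and -0.24 ± 0.15 in culture, not called in either. HEATR1 had 43.7, 45.7, 48.4, 49.9 and 48.7 CPM in vesicle cultures 1 to 5, 39.2, 31.9, 33.6, 44.2 and 40.5 in cultures 1 to 5 and 46.5, 41.3, 47.9, 38.6 and 40.97 in fresh libraries 1 to 5. All 3 groups overlapped, with log2 fold changes against fresh tissue of 0.14 ± 0.11 in vesicle culture and -0.18 ± 0.11 in culture. Under upper-quartile scaling the value in culture passed the call at -0.28.

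Other factors of the small subunit processing assembly were UTP20, NOP14 and RRP9. UTP20, a very long scaffold protein, had 47.7, 44.5, 41.9, 43.4 and 45.4 CPM in vesicle cultures 1 to 5, 48.8, 35.8, 26.9, 49.2 and 45.4 in cultures 1 to 5 and 33.3, 29.9, 24.9, 31.9 and 37.6 in fresh libraries 1 to 5. Vesicle culture was above fresh tissue in every library, and culture was too except for cultures 2 and 3, and UTP20 was called in vesicle culture (0.50 ± 0.16) and not in culture (0.39 ± 0.16), but was called there without culture 3 (0.52 ± 0.12) and also without culture 2 or fresh 5. NOP14 averaged 41.3 ± 3.04 CPM in vesicle culture, 53.6 ± 35.8 in culture and 27.3 ± 2.49 in fresh tissue. Its value in culture 3 was 3.12 times the mean of the other 4 cultures, and all vesicle cultures were above all fresh libraries. The log2 fold change of NOP14 was 0.60 ± 0.28 in vesicle culture, not called. In the fit of only the 10 libraries compared it was 0.59 ± 0.086 and called. In culture NOP14 had 0.97 ± 0.28 (0.47 ± 0.091 without culture 3). RRP9, a protein of the box C/D snoRNP that guides the first cuts, averaged 17.5 ± 1.91 CPM in vesicle culture, 27.1 ± 23.3 in culture and 13.7 ± 1.32 in fresh tissue. Culture 3 had 4.12 times the mean of the other 4 cultures, the largest ratio among the members. The log2 fold change of RRP9 was 0.35 ± 0.35 in vesicle culture, not called, though all vesicle cultures were above all fresh libraries. In the fit of only the 10 libraries compared it was 0.34 ± 0.11 and called. In culture RRP9 had 0.98 ± 0.36 (0.30 ± 0.11 without culture 3). The call in culture was lost with limma-voom, in the fit of only the 10 libraries compared, with the replicate block and without fresh 2 or fresh 5.

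The rest of this block were the helicase DDX10 and the factors of later steps BYSL, NOB1 and RRP12. NOB1, the endonuclease that makes the last cut of small subunit RNA, had the largest log2 fold change of this block in culture when culture 3 was included (gene 101098104), while UTP4 had the largest without it and in vesicle culture. It had 68.6, 63.8, 58.5, 70.9 and 58.9 CPM in vesicle cultures 1 to 5, 67.4, 62.04, 138, 74.1 and 59.5 in cultures 1 to 5 and 38.6, 30.1, 34.9, 40.9 and 34.7 in fresh libraries 1 to 5. All cultured libraries were above all fresh ones, with culture 3 the highest, and the log2 fold change was 0.84 ± 0.20 in vesicle culture and 1.16 ± 0.20 in culture (0.89 ± 0.10 without culture 3). BYSL, bystin, a factor of the small subunit precursor, averaged 29.5 ± 1.23 CPM in vesicle culture, 31.6 ± 7.96 in culture and 15.2 ± 1.94 in fresh tissue, with log2 fold changes of 0.96 ± 0.16 and 1.06 ± 0.16. DDX10, an RNA helicase, averaged 35.4 ± 1.71 CPM in vesicle culture, 37.5 ± 6.49 in culture and 22.1 ± 1.94 in fresh tissue, with 0.68 ± 0.13 and 0.76 ± 0.13. Both genes were separated upwards in either kind of culture. RRP12, a factor of late maturation and export, had 33.3, 30.2, 27.999, 32.4 and 26.7 CPM in vesicle cultures 1 to 5, 30.8, 21.2, 72.3, 31.1 and 25.9 in cultures 1 to 5 and 29.8, 31.8, 32.6, 33.1 and 32.2 in fresh libraries 1 to 5. Culture 3 was the highest library, the other groups overlapped, and RRP12 was not called in vesicle culture (-0.083 ± 0.25) or in culture (0.18 ± 0.25, and -0.22 ± 0.11 without culture 3).

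**Figure D3:**
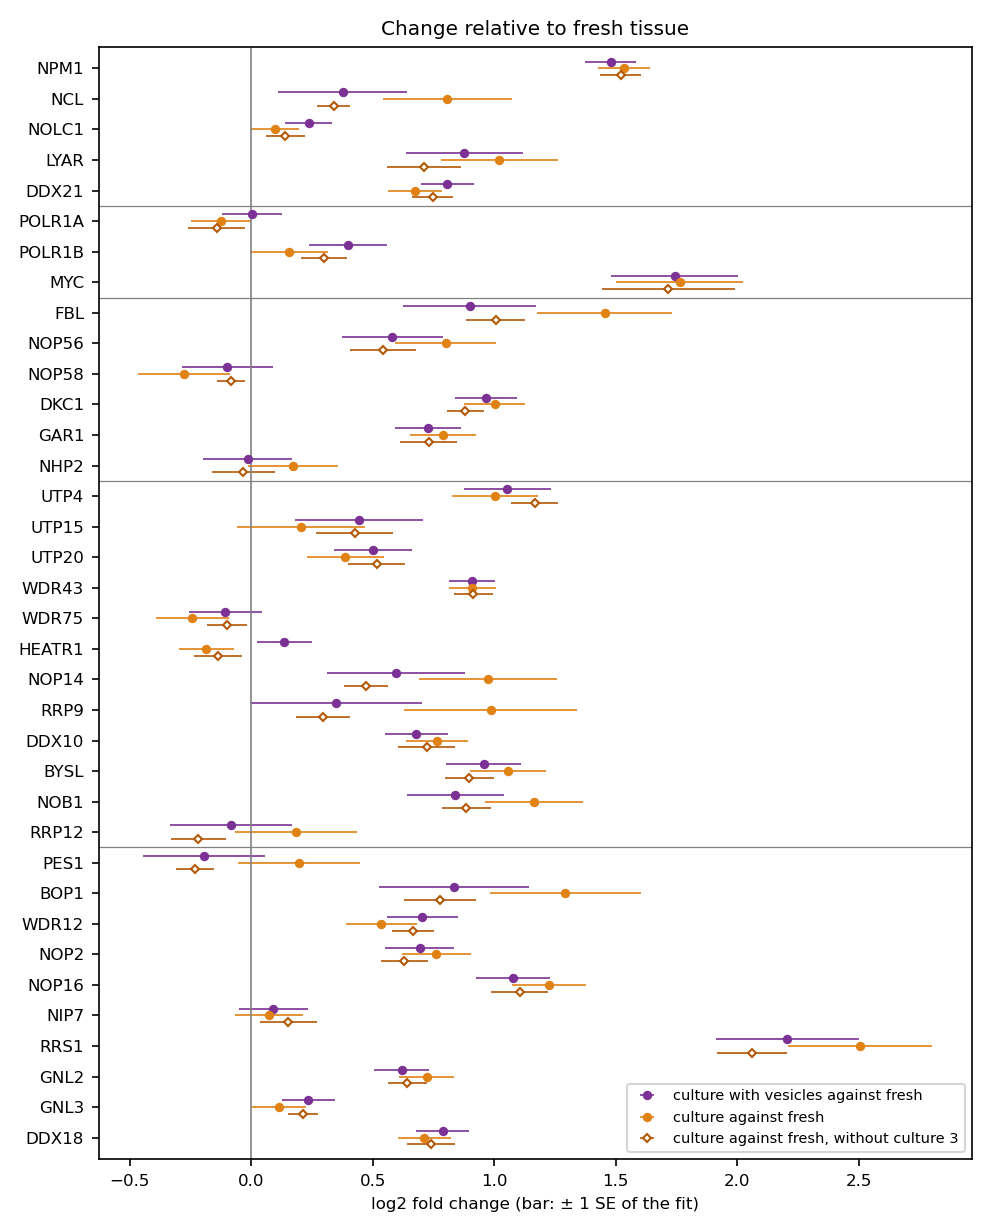
Log2 fold change of each gene against fresh tissue (x axis) for vesicle culture (purple, above), culture (orange) and culture without culture 3 (open diamonds), with bars of ± 1 SE of the edgeR fit (n = 5 libraries per group, 4 for the diamonds) and genes in blocks by role. RRS1, MYC and NPM1 lie furthest right, PES1 changes side without culture 3 (0.20 against -0.23), and RRP9 moves furthest towards 0 (0.98 against 0.30).

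In the large subunit block 7 of 10 genes were called higher in vesicle culture (27.4% of all tested genes) and 7 of 10 in culture (28.7%), or 8 higher and 1 lower without culture 3 (30.9% and 29%). In the fit of vesicle culture and fresh tissue alone, GNL3 was also called higher and PES1 lower in vesicle culture. RRS1, which helps to place the small ribosomal RNA of the large subunit, had the largest log2 fold change of all members (gene 101088718). It had 21.3, 18.8, 19.6, 25.9 and 16.5 CPM in vesicle cultures 1 to 5, 16.9, 19.7, 52.3, 18.99 and 17.8 in cultures 1 to 5 and 4.13, 4.5, 5.02, 4.91 and 3.56 in fresh libraries 1 to 5. The lowest cultured library was above 3 times the highest fresh one. The log2 fold change of RRS1 was 2.21 ± 0.29 in vesicle culture and 2.50 ± 0.30 in culture, and 2.06 ± 0.14 without culture 3. PES1, BOP1 and WDR12 form 1 complex that is needed to process large subunit RNA, yet their values differed. PES1 had 86.7, 80.97, 83.1, 85.2 and 76.1 CPM in vesicle cultures 1 to 5, 79.6, 73.9, 221, 91.4 and 74.7 in cultures 1 to 5 and 97.3, 96.9, 99.1, 94.03 and 84.5 in fresh libraries 1 to 5. With culture 3 set aside, the cultured libraries overlapped the lower end of fresh tissue, and PES1 had -0.20 ± 0.25 in vesicle culture and 0.20 ± 0.25 in culture, not called in either, but -0.23 ± 0.079 without culture 3, called lower. BOP1 averaged 30.6 ± 5.21 CPM in vesicle culture, 42.2 ± 28.9 in culture and 17.2 ± 2.57 in fresh tissue, and was called higher in vesicle culture (0.83 ± 0.31) and in culture (1.29 ± 0.31, and 0.78 ± 0.15 without culture 3). The call of BOP1 in vesicle culture was lost under both other scalings and without vesicle culture 1, 2, 3 or 4 or fresh 2, 3 or 5 (values 0.73 to 0.84). WDR12 averaged 41.8 ± 1.84 CPM in vesicle culture, 37.1 ± 8.31 in culture and 25.6 ± 1.89 in fresh tissue, with 0.70 ± 0.15 in vesicle culture and 0.53 ± 0.15 in culture (0.67 ± 0.086 without culture 3), both called.

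The GTPases and helicase of large subunit assembly were closer together. GNL2, a GTPase that leaves the particle before export, averaged 49.4 ± 2.31 CPM in vesicle culture, 53.01 ± 7.88 in culture and 32.2 ± 2.52 in fresh tissue, with log2 fold changes of 0.62 ± 0.11 and 0.72 ± 0.11. DDX18, an RNA helicase, averaged 78.1 ± 3.43 CPM in vesicle culture, 74.1 ± 5.98 in culture and 45.2 ± 6.28 in fresh tissue, with 0.79 ± 0.11 and 0.71 ± 0.11. Both were above all fresh libraries in each cultured one. GNL3, nucleostemin, a related GTPase of dividing and stem cells, had 60.2, 61.1, 54.1, 57.7 and 58.1 CPM in vesicle cultures 1 to 5, 57.9, 59.7, 39.8, 54.7 and 55.7 in cultures 1 to 5 and 49.2, 48.3, 47.4, 51.6 and 50.8 in fresh libraries 1 to 5. Apart from culture 3 every cultured library was above every fresh one by a small margin, and GNL3 was not called in vesicle culture (0.23 ± 0.11) or in culture (0.11 ± 0.11), but was called without culture 3 (0.21 ± 0.062). NOP2, an RNA methyltransferase, averaged 43.2 ± 3.4 CPM in vesicle culture, 45.4 ± 9.96 in culture and 26.8 ± 2.76 in fresh tissue, and NOP16 averaged 25.8 ± 2.91 CPM in vesicle culture, 28.6 ± 5.97 in culture and 12.2 ± 1.39 in fresh tissue. Both were called in vesicle culture (0.69 ± 0.14 and 1.08 ± 0.15) and in culture (0.76 ± 0.14 and 1.23 ± 0.15). NIP7 had the smallest difference of the block, with 14.98, 12.7, 13.9, 14.9 and 17.1 CPM in vesicle cultures 1 to 5, 14.2, 16.2, 11.6, 15.8 and 14.8 in cultures 1 to 5 and 14.5, 11.2, 13.1, 15.4 and 14.8 in fresh libraries 1 to 5. Its groups overlapped, and its log2 fold change was 0.091 ± 0.14 in vesicle culture and 0.074 ± 0.14 in culture, not called in either.

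Culture 3 departed from the other 4 cultures in most members and in both directions. It lay above the range of the other 4 in 19 members, below it in 12 and within it in 5. Among all 18038 tested genes culture 3 lay above in 5866, below in 6807 and within in 5365. The share outside the range was 86.1% of the members and 70.3% of all tested genes. NPM1 (1.08 times the mean of the other 4), WDR43 (1.02) and DDX18 (0.932) were close to the others, while RRP9 (4.12), BOP1 (3.19), NOP14 (3.12), NCL (2.96), FBL (2.87), RRS1 (2.85) and PES1 (2.77) were far higher there. UTP15 (0.318), NOP58 (0.406) and UTP4 (0.489) were far lower. More than 1 log2 unit separated culture 3 from the mean of the others in 14 of 36 members, or 38.9%, beside 39.0% of all tested genes. Vesicle culture 3 showed no such values, with ratios to the other 4 vesicle cultures of 0.811 (POLR1A) to 1.23 (LYAR). Apart from culture 3, libraries of a group lay closer together: the median SD of their log2 levels was 0.103 in vesicle culture, 0.141 in culture without culture 3, 0.368 with it and 0.137 in fresh tissue, beside 0.288, 0.304, 0.541 and 0.291 over all tested genes. NCL varied least of the members between vesicle cultures (SD 0.0275) and LYAR most (0.286), and MYC most between fresh libraries (0.668).

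**Figure D4:**
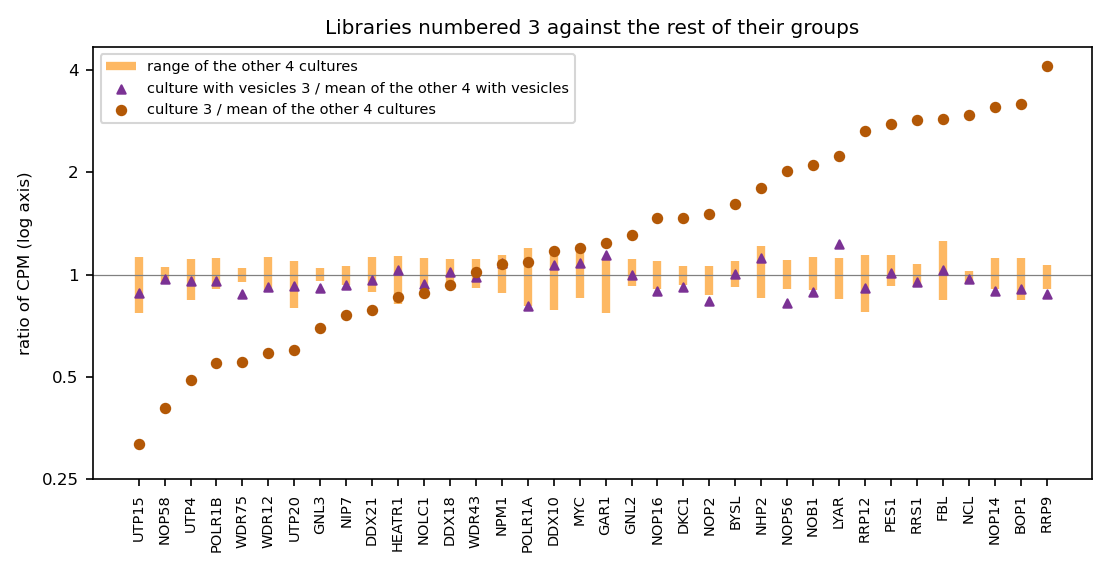
Ratio of CPM in culture 3 to the mean of the other 4 cultures (brown circles) and of vesicle culture 3 to the mean of the other 4 vesicle cultures (purple triangles) for each gene, on a log axis; orange bars span the other 4 cultures. Culture 3 runs from 0.318 times (UTP15) to 4.12 times (RRP9), while vesicle culture 3 stays between 0.811 and 1.23 times.

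The comparison of vesicle culture with culture addresses the question of the series, and no member differed between them past the test. Of 18038 tested genes 0 were called (0%), and so 0 of 36 members, by edgeR, DESeq2 and limma-voom. At an unadjusted p under 0.05 there were 183, 269 and 106 genes by these tools, and among the members 1, 2 and 1. The median log2 fold change of the members was -0.06, and 0.05 without culture 3, with 14 of 36 above 0 and 25 of 36 without culture 3. All 36 members overlapped between these groups, where 0.0832% of all tested genes did not (0.0499% higher and 0.0333% lower in vesicle culture). The 95% intervals of 33 of 36 members lay within 1 log2 unit of 0 and those of 19 within 0.5, and without culture 3 these counts were 36 and 35. These intervals are from the fit with group as the only term, which does not use the pairing by number. With the replicate number as a block the members' log2 fold changes ran from -0.44 to 0.33, and 0 were called.

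The 4 members with the smallest p were HEATR1, FBL, RRP9 and NOB1. HEATR1 averaged 47.3 ± 2.53 CPM in vesicle culture and 37.9 ± 5.08 in culture (SD, n = 5 each), a log2 fold change of 0.32 ± 0.11 (SE; 95% interval 0.082 to 0.56). It was higher in vesicle culture in 5 of 5 same-numbered pairs (edgeR adjusted p = 1), and had 0.28 ± 0.099 without culture 3 (edgeR adjusted p = 1). With the replicate number as a block its edgeR adjusted p was 0.967. FBL averaged 83.4 ± 8.42 CPM in vesicle culture and 123 ± 75.99 CPM in culture, a log2 fold change of -0.56 ± 0.27 (edgeR adjusted p = 1), but -0.098 ± 0.12 without culture 3. RRP9 averaged 17.5 ± 1.91 CPM in vesicle culture and 27.1 ± 23.3 CPM in culture, a log2 fold change of -0.64 ± 0.35 (edgeR adjusted p = 1), but 0.062 ± 0.11 without culture 3. NOB1 averaged 64.1 ± 5.58 CPM in vesicle culture and 80.2 ± 32.8 CPM in culture, a log2 fold change of -0.32 ± 0.20 (edgeR adjusted p = 1), but -0.037 ± 0.10 without culture 3. Without culture 3 no member was further from 0 than HEATR1, and the widest interval was that of MYC (-0.55 to 0.62). Besides HEATR1, NOLC1 (0.14 ± 0.098) and GNL3 (0.12 ± 0.11) were higher in vesicle culture in 5 of 5 same-numbered pairs, neither at an unadjusted p under 0.05.

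Other genes of the same pathway were taken from lists by function. Like the members, these lists were drawn up with earlier results of these libraries known, so their counts and p-values against fresh tissue are a description and no independent evidence. Of 196 listed genes 192 were in the table, and 141 of these act in ribosomal RNA transcription, processing and assembly. Of the 141, 51 were called higher and 8 lower in vesicle culture (27.4% and 25.5% of all tested genes). In culture 64 were called higher and 5 lower (28.7% and 25.6%), or 73 and 13 without culture 3 (30.9% and 29%). Their median log2 fold change was 0.32 in vesicle culture and 0.39 in culture, against 0.01 and 0.04 over all genes. In vesicle culture against culture 0 of the 141 were called by edgeR, DESeq2 or limma-voom, with 2, 2 and 0 at an unadjusted p under 0.05.

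Among 14 other subunits and factors of RNA polymerase I, 4 were called higher and 0 lower in culture, beside 28.7% and 25.6% of all tested genes. At an unadjusted p under 0.05 the counts were 4 and 0, by DESeq2 3 and 0 and by limma-voom 4 and 0. POLR1G, a subunit of this polymerase, averaged 23.9 ± 23.1 CPM in culture and 4.67 ± 0.688 CPM in fresh tissue (SD, n = 5 each; log2 fold change 2.35 ± 0.42, edgeR adjusted p = 0.00023; 1.54 without culture 3). TCOF1, treacle, which links ribosomal RNA transcription and processing, averaged 28.5 ± 17.5 CPM in culture and 13.2 ± 1.87 CPM in fresh tissue (log2 fold change 1.11 ± 0.28, edgeR adjusted p = 0.00343; 0.66 without culture 3). Both passed in culture, while TCOF1 in vesicle culture had 0.68 ± 0.28 (edgeR adjusted p = 0.0503).

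The lists of subunit assembly factors were the longest, so their number of calls is not compared with that of other lists. Of 46 other small subunit factors 21 were higher and 3 lower in culture (28.7% and 25.6% of all tested genes). UTP14A, of the processing assembly, had a log2 fold change of 1.99 ± 0.25 and WDR3 0.98 ± 0.13 (edgeR adjusted p = 9.72e-06 and 1.95e-05). IMP3 and ESF1 were lower, with -0.42 ± 0.12 and -0.30 ± 0.11 (edgeR adjusted p = 0.00813 and 0.0351). Of 53 other large subunit factors 25 were higher and 2 lower, beside the same shares of all tested genes. RSL1D1 had 1.26 ± 0.16 and NLE1, a remodelling factor of the large subunit particle, 1.67 ± 0.22 (edgeR adjusted p = 1.31e-05 and 1.38e-05). HEATR3, which brings ribosomal proteins into the nucleus, averaged 45.6 ± 4.76 CPM in culture and 110.2 ± 12.4 CPM in fresh tissue (log2 fold change -1.27 ± 0.11, edgeR adjusted p = 3.52e-07), and the helicase DDX24 had -0.48 ± 0.18 (edgeR adjusted p = 0.0385; -0.73 without culture 3).

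Of 11 other snoRNP proteins and assembly factors 5 were higher and 0 lower in culture, beside 28.7% and 25.6% of all tested genes. At an unadjusted p under 0.05 the counts were 5 and 1. Without culture 3, 7 were called higher and 2 lower (30.9% and 29% of all tested genes). ZNHIT6, which assembles box C/D particles, had 1.18 ± 0.14 and the ATPase RUVBL2 0.95 ± 0.20 (edgeR adjusted p = 4.93e-06 and 0.000847). Of 17 genes of the RNA exosome and other exonucleases, which trim the precursor, 9 were higher and 0 lower (28.7% and 25.6% of all tested genes). At an unadjusted p under 0.05 the counts were 10 and 0, by DESeq2 10 and 0 and by limma-voom 9 and 0. The exonucleases ERI1 and ISG20L2 had 1.26 ± 0.14 and 0.96 ± 0.11 (edgeR adjusted p = 2.62e-06 and 3.51e-06). The genes named from such lists across the whole text were those with the smallest p in each direction, so that their sizes do not stand for their lists.

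**Figure D5:**
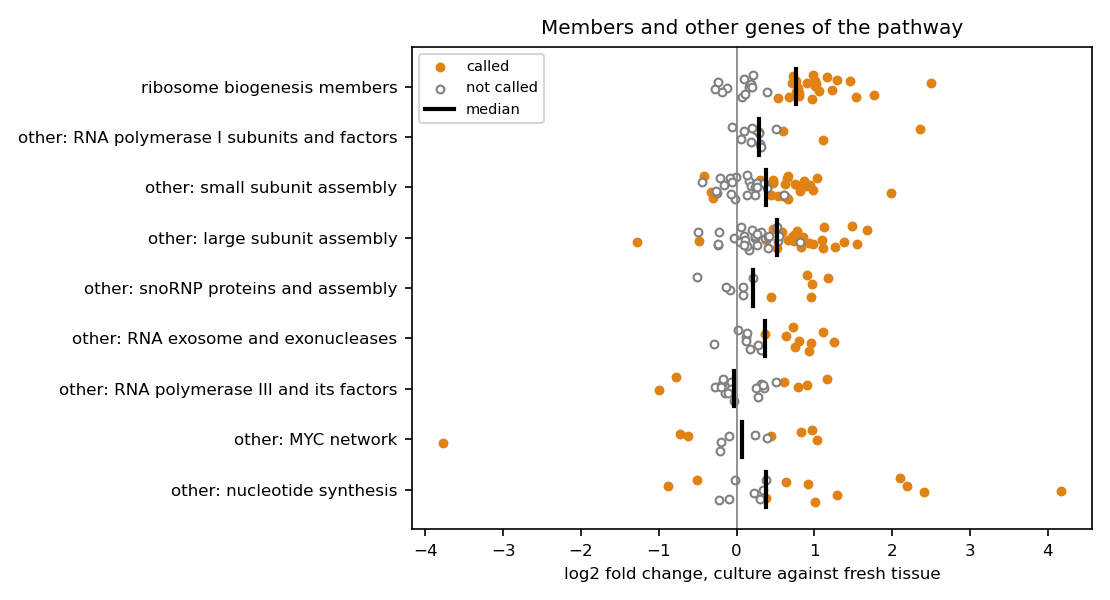
Log2 fold change in culture against fresh tissue (x axis) for the 36 members (top row) and for 8 lists of other pathway genes, each point a gene, filled where called by edgeR at an adjusted p of 0.05 and open where not, with a black bar at the median of each row. The members' median is 0.76, and the medians of the other lists lie between -0.03 (RNA polymerase III) and 0.52 (large subunit assembly).

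One feature of the members that the choice of genes did not use is where other genes lie. In the RefSeq annotation 6 of 36 members (NCL, NOP56, NOP58, DKC1, WDR43 and GNL3) hold models of small nucleolar RNAs inside them, 19 models in all. That is 16.7% of the members, beside 1.21% of the 20453 protein-coding genes (247 genes). Of these 6 hosts, NOP56, DKC1 and WDR43 were called higher in either kind of culture in the fit of all 15 libraries. NCL was called there in culture only, and NOP58 and GNL3 in neither. Of all tested genes 28.7% were called higher in culture and 27.4% in vesicle culture. In the fits of only the 10 libraries compared, NCL was called in vesicle culture and not in culture, and GNL3 was called in vesicle culture. Without culture 3 GNL3 was also called in culture. The small RNAs themselves were not analysed here. Of the 36, 12 members overlap a gene model of another kind, NOLC1, LYAR, DDX21, POLR1B, UTP4, UTP20, DDX10, BOP1, WDR12, NIP7, GNL2 and GNL3, and since the strand setting of the counts is not given, reads of their overlapping partners cannot be told apart from theirs. RRS1, MYC, NPM1, FBL, NOP16, NOB1, BYSL and DKC1 are not among these 12.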

How the data were processed

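The authors deposited raw read counts for 38995 genes in 15 libraries. Per the labels' protocols, RNA came from a Qiagen kit and the libraries from a TruSeq Stranded mRNA kit. Per the submitters' processing notes, the tools included StringTie 2.1.3b, Bowtie2 2.3.4.1, HISAT2 2.1.0 and Trimmomatic 0.38, with no role or order given. Not given in the sources used here are genome build, annotation, counting program, strand setting and the treatment of reads that match several copies, so that values of genes with near-identical copies are uncertain. All gene identifiers matched names in a RefSeq table of assembly F.catus_Fca126_mat1.0, used for names and overlapping genes only. No sequence was used.

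The filterByExpr function of edgeR (minimum count 10, minimum total 15) kept 18038 genes and removed 20957. After TMM scaling, edgeR 4.0.16 (R 4.3.3) was used for the fit (quasi-likelihood, 2-sided, all 15 libraries in 1 fit, group as the only term, 12 residual degrees of freedom). Genes were called at a Benjamini-Hochberg adjusted p of 0.05 over all tested genes. SEs were obtained as |log2 fold change| over the root of the F statistic. Levels are CPM on the effective library size, which are not divided by gene length and so are not compared between genes. The fit was tested on simulated data.

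The members, the role groups and the lists were chosen with earlier results of these data known. Named were all members; values in every library were given for NPM1, NCL, FBL, MYC, the extremes of each role group and all members not called in culture. From each other list the 2 called genes with the smallest p per direction were named (1 such gene is not reported here), and for the vesicle effect the 4 members with the smallest p. Another 4 listed genes (RRP36, PPAN, BCCIP and NOPCHAP1) and the markers KRT14 and PRM1 matched no row by symbol. Alternatives were DESeq2 1.42.0, limma-voom (limma 3.58.1), scaling by upper quartile or by relative log expression, and testing without a filter. Others were fits of only the 10 libraries compared, the replicate number as a block, and leaving out each library of the groups compared. Numbers were taken to pair samples where every same-numbered pair's deviations from group means correlated above 0.1. This held for vesicle culture with fresh tissue (0.242 to 0.362) and with culture (0.181 to 0.602). Between culture and fresh tissue only the libraries numbered 3 fell below it (0.033).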

Additional observations from a re-analysis of the deposited data

Results flagged for a closer look

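Within each group of 5 libraries, a gene was marked when 1 library lay so far out that its gap to the nearest other, divided by the group's range, exceeded 0.71, which chance does for about 1 in 20 groups. Of 108 such tests (36 genes in 3 groups) 14 passed: 0 in vesicle culture, 13 in culture, all on culture 3, and 1 in fresh tissue.

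In culture 3 the high values were NCL at 1417 CPM (other cultures 451 to 491), LYAR at 31.9 (12.1 to 15.9), NOP56 at 197 (88.7 to 108), DKC1 at 85.7 (54.3 to 61.7), NOP14 at 117 (34.2 to 42.1), RRP9 at 68.8 (15.2 to 17.9), NOB1 at 138 (59.5 to 74.1), PES1 at 221 (73.9 to 91.4), BOP1 at 93.5 (24.7 to 32.8) and RRS1 at 52.3 (16.9 to 19.7). The low values there were NOP58 at 36.4 CPM (84.7 to 94.2), WDR75 at 25.5 (43.7 to 48.3) and GNL3 at 39.8 (54.7 to 59.7). The summed share of the 36 genes was also far out in culture 3, at 0.419% of counts against 0.276% to 0.282%. In the same library mitochondrially encoded genes took 0.179% of counts, and their part in these values was not tested. In fresh tissue NHP2 had 45.9 CPM in fresh 2 against 32.7 to 34.8 CPM in the other 4.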

How the results depend on the processing

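Among the results run under alternatives, 1 changed sign and was called: PES1 in culture against fresh tissue, at -0.23 without culture 3. Values near 0 that were not called, such as NHP2 and RRP12 there, also changed sign without culture 3. Libraries were left out 1 at a time, but only those of the groups compared. Culture 3 thus stayed in every such fit of vesicle culture against fresh tissue, where it entered the shared estimate of the spread. Called members were 19 to 21 in vesicle culture against fresh tissue and 22 to 28 in culture against fresh tissue. Member medians were 0.62 to 0.69 and 0.64 to 0.79 in that order. Called other pathway genes were 68 to 80 and 81 to 115, and all called genes 8833 to 9125 and 9039 to 11090. In vesicle culture against culture, leaving out 1 library gave 0 called genes throughout and medians of -0.10 to 0.05. Mean shares were 0.282% to 0.286% in vesicle culture, 0.279% to 0.314% in culture and 0.182% to 0.185% in fresh tissue. Without the mitochondrially encoded genes in the total, the share was 0.304% in vesicle culture and 0.204% in fresh tissue. The fit of only 10 libraries called 125 other pathway genes in vesicle culture against fresh tissue, against 83 in the fit of all 15; the cause was not tested. Upper-quartile scaling moved the median of all genes by -0.11 in vesicle culture and -0.096 in culture, both against fresh tissue, and the members' median in vesicle culture to 0.54. Under relative log expression and upper-quartile scaling POLR1B, NOP56 and BOP1 lost their calls in vesicle culture. With the replicate block, where pairing held, 23 members were called in vesicle culture against fresh tissue (10283 genes in all) and 0 against culture (0 genes). In culture against fresh tissue only the libraries numbered 3 missed the limit for pairing, at 0.033, and the others correlated at 0.198 to 0.344. Both groups paired by number with vesicle culture. In culture against fresh tissue the block gave 23 called members and 10438 genes, with UTP20 gained and RRP9 lost. It changed no other call of a member in these comparisons than these and NOLC1. Promoter motifs were not run, as no sequences were used. The lowest count of a member in a library was 69.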

Other observations

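Lists outside ribosomal RNA processing went both ways. Among 18 genes of nucleotide synthesis, which supplies RNA precursors, 10 were called higher and 2 lower in vesicle culture against fresh tissue (27.4% and 25.5% of all tested genes). In culture against fresh tissue 9 were called higher and 2 lower (28.7% and 25.6%). NME1, a nucleoside diphosphate kinase with a near-identical neighbour gene in other mammals, averaged 89.7 ± 45.2 CPM in culture and 4.97 ± 1.003 CPM in fresh tissue (SD, n = 5 each), a log2 fold change of 4.17 ± 0.28 (edgeR adjusted p = 2.45e-08; 3.82 without culture 3). IMPDH1, an enzyme of guanine nucleotide synthesis, had 2.41 ± 0.23 (edgeR adjusted p = 7.67e-07). CAD and GART, enzymes of pyrimidine and purine synthesis, were lower in culture, with -0.88 ± 0.17 and -0.51 ± 0.11 (edgeR adjusted p = 0.000418 and 0.0013). Of 12 genes of the MYC network 4 were higher and 3 lower in culture (28.7% and 25.6% of all tested genes). MAX, the partner of MYC, had 0.83 ± 0.14 and the antagonist MXI1 0.97 ± 0.24 (edgeR adjusted p = 0.000102 and 0.00329). MLXIPL, a glucose-responsive factor of the same network, averaged 8.92 ± 3.66 CPM in culture and 122 ± 41.1 CPM in fresh tissue (log2 fold change -3.78 ± 0.34, edgeR adjusted p = 3.69e-07), and MGA had -0.73 ± 0.11 (edgeR adjusted p = 5.89e-05).

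RNA polymerase III, which makes transfer RNAs and the smallest ribosomal RNA, had 4 of 21 genes higher and 2 lower in culture. Over all tested genes these shares were 28.7% and 25.6%. POLR3G and POLR3C had 1.17 ± 0.27 and 0.61 ± 0.11 (edgeR adjusted p = 0.0017 and 0.000253), and POLR3F had -0.999 ± 0.19 (edgeR adjusted p = 0.000374). Of 78 ribosomal protein genes 38 were higher and 0 lower in vesicle culture against fresh tissue (27.4% and 25.5% of all tested genes). In culture against fresh tissue 50 were higher and 0 lower (28.7% and 25.6%). At an unadjusted p under 0.05 the counts were 43 and 0 in vesicle culture and 57 and 0 in culture. DESeq2 called 2 lower in each comparison and limma-voom 0.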
